A study of Mus musculus with 2 samples.

Results

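The Egr and Nr4a genes are early response genes, which are transcribed within minutes of a stimulus without new protein synthesis. Their transcripts were counted in hippocampal microglia, the brain's own macrophages, in a study of mice with fetal growth restriction (FGR). The set comprised 8 genes, found by symbol among 32245 gene symbols: the zinc finger transcription factor genes Egr1, Egr2 and Egr3, the genes Nab1 and Nab2 of the corepressors that bind Egr proteins, and the orphan nuclear receptor genes Nr4a1, Nr4a2 and Nr4a3. All 8 were found. They were selected on summed levels in these same 2 libraries, for a contrast of Egr2, lower in FGR, with Nr4a1, higher in FGR, so the summed levels of these 2 genes are a description.

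The data comprised 2 droplet-based 3′ single-cell libraries, 1 from FGR mice and 1 from Control mice, both taken 3 weeks after birth. Mice of both groups carried 1 Tmem119-tdTomato allele (Tmem119-tdTomato+/-), a red fluorescent reporter of the microglial gene Tmem119, and cells positive for Tmem119 were sorted by flow cytometry. The sources used here give neither the way growth was restricted nor the number of animals per library. With 1 library per group nothing could be tested, cells are not replicates, and every interval below is a 95% interval that covers counting error only.

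Cells were barcodes with at least 1500 unique molecular identifiers (UMIs, each tagging 1 molecule of RNA), at least 200 genes and at most 10% mitochondrially coded UMIs. There were 8618 FGR cells and 10687 Control cells, with medians of 4919.5 and 4657 UMIs per cell and totals of 45441515 and 53560293 UMIs. Of these, 31 cell barcodes occurred in both libraries. The 12 microglial markers summed to 37138 UMI counts per 1000000 UMIs of the cells (CPM) in FGR cells and 37825 CPM in Control cells, and each was detected. Markers of endothelial cells summed to 66.0 and 37.0 CPM, of fibroblasts to 42.4 and 11.03 CPM and of astrocytes to 325.0 and 195.1 CPM, while those of neutrophils were near 0 in both (0.0440 and 0.0373 CPM). The highest gene of the astrocyte list alone held 297.9 CPM in FGR cells and 163.3 CPM in Control cells. Other lists had the lower sum in FGR cells, with 34.0 and 121.7 CPM for red blood cells, 3.87 and 8.66 CPM for neurons and 42.1 and 56.7 CPM for ependyma and choroid plexus. The part of such cells in the results was not tested, beyond leaving out 1 cluster below.

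Egr proteins bind GC-rich sites next to many growth and activation genes, and Egr1, Egr2 and Egr3 share a nearly common DNA-binding domain. Nab1 and Nab2 dock on Egr1 and Egr2 and can turn them into repressors, and Nab2 is itself an Egr target, which closes a feedback loop. The 3 Nr4a receptors act without a known natural ligand as monomers or dimers, Nr4a1 and Nr4a2 also with the retinoid X receptor, and in myeloid cells they are known as brakes on NF-kB driven inflammation. Egr genes are switched on mainly by the ERK kinases through serum response factor at CArG boxes, and Nr4a1 mainly by cyclic AMP and calcium through CREB-family factors at CRE-like sites.

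The upstream sequences of Egr2 and Nr4a1, the genes set against each other, and of Nr4a2, the Nr4a gene with the fewest UMIs, show how different these windows are. Each is the 250 bases before a RefSeq start in build GRCm38.p6, the start nearest to the gene's principal annotated transcript, printed 5′ to 3′ on the gene's strand. Capitals mark the CArG box, the CRE core TGACG on either strand (CGTCA where it lies on the other strand) and the element TGCGTCA, which contains that core on the other strand.
Egr2, chr10:67537619-67537868, plus strand: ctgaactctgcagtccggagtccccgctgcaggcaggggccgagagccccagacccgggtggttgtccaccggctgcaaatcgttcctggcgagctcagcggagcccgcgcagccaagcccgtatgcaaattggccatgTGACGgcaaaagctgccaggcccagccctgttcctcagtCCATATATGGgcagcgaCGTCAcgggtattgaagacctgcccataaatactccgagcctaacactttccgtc
Nr4a1, chr15:101266596-101266845, plus strand: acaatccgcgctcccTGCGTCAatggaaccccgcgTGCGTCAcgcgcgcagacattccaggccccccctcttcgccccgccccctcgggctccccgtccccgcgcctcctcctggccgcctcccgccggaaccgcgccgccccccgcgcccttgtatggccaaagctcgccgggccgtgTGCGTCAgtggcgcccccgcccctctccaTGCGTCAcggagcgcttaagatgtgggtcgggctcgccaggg
Nr4a2, chr2:57124004-57124253, minus strand: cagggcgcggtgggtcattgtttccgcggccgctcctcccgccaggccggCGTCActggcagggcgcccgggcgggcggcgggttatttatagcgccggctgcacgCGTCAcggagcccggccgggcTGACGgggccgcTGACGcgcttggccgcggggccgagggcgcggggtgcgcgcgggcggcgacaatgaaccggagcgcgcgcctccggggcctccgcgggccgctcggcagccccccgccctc

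Windows were given for 6 of the 8 genes, without Egr1 and Egr3. Those of Egr2 and Nr4a1 lie within introns of longer annotated transcripts of the same genes, and that of Nr4a2 lies outside its annotated transcripts. The Egr2 window held 1 CArG box, CCATATATGG, from base -72 to -63 before the start, and a TGACG on each side of it. A CArG box was found in 1.47% of 32851 such windows over all genes, and in no other member's window. The Nr4a1 window held 4 copies of TGCGTCA, at bases -235, -215, -71 and -42. That element occurred at least once in 1.75% of all windows, and 1 window of the 32851, that of Nr4a1, held 4 or more. The windows of Nr4a2 and Nr4a3 each held 4 copies of TGACG with no TGCGTCA. At least 1 copy of TGACG was found in 17.8% of all windows and 4 or more in 0.137%. An EGR site, GCGNGGGCG, was found at 3 places in the Nab1 window, at 1 place in those of Nr4a1 and Nr4a2, and in 4.70% of all windows. None of the 6 member windows held TGACGTCA, TGANTCA or AAAGGTCA. All motifs were searched on both strands, and a match is a match of letters only.

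By summed level the 8 genes spanned more than 3 orders of magnitude, and the order was similar in both libraries. Because 1 UMI stands for 1 captured molecule whatever the transcript's length, levels are given in CPM without a length correction. Egr1, the most abundant, stood at 2853 CPM in FGR cells (2837 to 2868) and 3777 CPM in Control cells (3761 to 3794), and its share of all Egr UMIs was 97.0% and 96.4%. It lies on chromosome 18 (34859823 to 34864984, plus strand, in GRCm38). Egr2 (chromosome 10, 67535475 to 67542188) stood at 43.9 CPM in FGR cells (42.0 to 45.9) and 96.5 CPM in Control cells (93.9 to 99.1). Egr3 (chromosome 14, 70077203 to 70082614) stood at 43.0 CPM in FGR cells (41.1 to 45.0) and 44.2 CPM in Control cells (42.4 to 46.0). In the FGR library Egr2 and Egr3 were therefore level within counting error, while in the Control library Egr2 lay well above Egr3.

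Nr4a1 (chromosome 15, 101254269 to 101274795) stood at 124 CPM in FGR cells (120.4 to 127) and 73.0 CPM in Control cells (70.7 to 75.3). It made up 97.2% of Nr4a UMIs in FGR cells and 97.3% in Control cells, so the mix of the 3 receptors was nearly the same in both libraries. Nr4a3 (chromosome 4, 48045153 to 48086447) stood at 2.20 CPM in FGR cells (1.79 to 2.68) and 1.27 CPM in Control cells (0.986 to 1.61), from 100 and 68 UMIs. Nr4a2 (chromosome 2, 57106830 to 57124003), from 59 and 41 UMIs, stood at 1.30 CPM in FGR cells (0.988 to 1.67) and 0.765 CPM in Control cells (0.549 to 1.04). The order of Nr4a1, Egr2 and Egr3 differed between the libraries, with Nr4a1 above Egr2 in FGR cells and Egr2 above Nr4a1 in Control cells.

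Of the corepressor genes, Nab2 (chromosome 10, 127660918 to 127668568) stood at 34.2 CPM in FGR cells (32.5 to 35.9) and 39.4 CPM in Control cells (37.7 to 41.1). Its exons overlap those of Stat6, Nemp1 and the antisense transcript Gm16229 on the other strand. Whether strand was used in counting is not stated, so reads of Nab2 and these neighbours may not be fully separable. Nab1 (chromosome 1, 52457294 to 52500679) stood at 20.4 CPM in FGR cells (19.1 to 21.8) and 16.6 CPM in Control cells (15.5 to 17.7). There were 83.5 Egr1 molecules per Nab2 molecule in FGR cells (79.4 to 87.9) and 95.9 in Control cells (91.9 to 100.1).

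**Figure D1:**
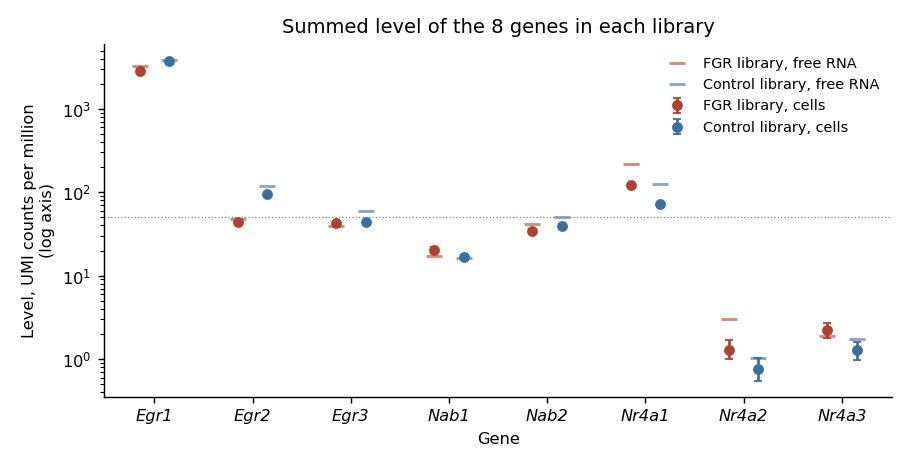
Summed level of each gene in CPM (log axis) in cells of the FGR library (red, left) and the Control library (blue, right), with 95% counting intervals. The short bars give the level in free RNA (barcodes of 10 to 100 UMIs), and the dotted line marks 50 CPM. Egr2 stood at 43.9 CPM in FGR cells and 96.5 CPM in Control cells, and Nr4a1 at 124 and 73.0 CPM.

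Set as ratios of FGR over Control, the members went in both directions. A gene counted as measured from 50 CPM upward in either library, and as past the rule of size when the whole interval of its ratio lay beyond 1.5-fold. Of the 8 members, 3 were measured, namely Egr1, Egr2 and Nr4a1. Egr2 was lower by the rule, with a ratio of 0.456 (0.432 to 0.480), and Nr4a1 was higher, with a ratio of 1.69 (1.63 to 1.76). The call for Nr4a1 ends at a ratio of 1.08 with cells weighted to the same amount of other early UMIs and at 1.21 in microglia-like clusters, both described further on. By the same rule 2.48% of the 3512 measured genes lay above, 1.17% below and 3.64% in either direction. Since the pair was chosen for this contrast, nothing is read from its count against that background.

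Egr1 was measured but stayed inside the rule, with a ratio of 0.755 (0.750 to 0.761). In microglia-like clusters only, however, its ratio was 0.540 (0.536 to 0.544), which is past the rule. That class, described further on, leaves out clusters 2 and 3, in which all 12 microglial markers were detected. Egr1 stood at 2257 and 2290 CPM in their Control cells, against 5913 CPM in those of cluster 1, which the class holds. With cells weighted to the same amount of other early UMIs the Egr1 ratio was 0.489. The median log2 ratio was -0.40 over the 3 members measured and -0.07 over all genes measured. Egr3, just below the minimum level, had a ratio of 0.973 (0.916 to 1.03), so the 3 Egr genes gave 3 different ratios. The 3 Nr4a genes gave nearly equal ones, with 1.70 (1.12 to 2.59) for Nr4a2 and 1.73 (1.26 to 2.39) for Nr4a3. Nab1 had a ratio of 1.23 (1.12 to 1.35) and Nab2 of 0.867 (0.811 to 0.926).

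Within each library the balance of molecules shifted accordingly. There were 0.356 Egr2 molecules per Nr4a1 molecule in FGR cells (0.338 to 0.374), against 1.32 in Control cells (1.27 to 1.38). These ratios of 2 counts from the same library do not depend on the scaling to library totals. There were 0.0433 Nr4a1 molecules per Egr1 molecule in FGR cells (0.0422 to 0.0445), against 0.0193 in Control cells (0.0187 to 0.0199). By contrast, Nr4a2 per Nr4a1 was 0.0105 in both libraries, and Nr4a3 per Nr4a1 was 0.0178 in FGR cells and 0.0174 in Control cells.

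**Figure D2:**
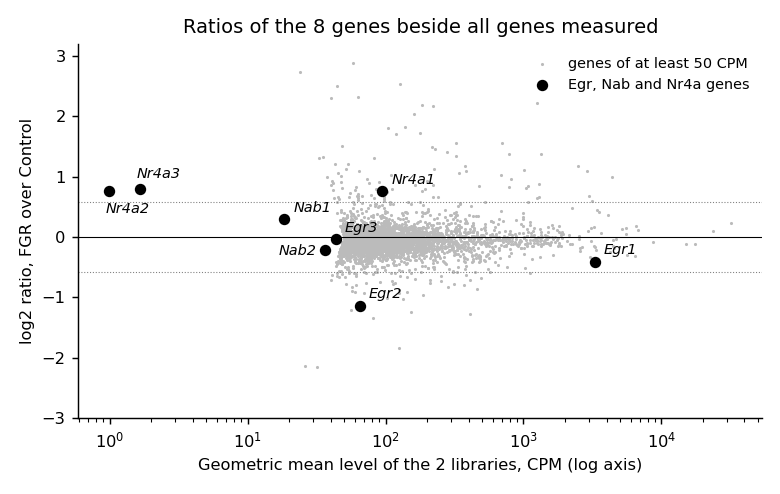
Log2 ratio of FGR over Control against the geometric mean level of the 2 libraries in CPM (log axis), for the 3512 genes measured (grey) and the 8 Egr, Nab and Nr4a genes (black). Dotted lines mark 1.5-fold in either direction. Egr2 lies below the lower line and Nr4a1 above the upper one, and 5 of the 8 genes were below 50 CPM in both libraries.

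Free RNA, which droplets take up from broken cells, carried the same contrast. In barcodes of 10 to 100 UMIs, Nr4a1 stood at 220.4 CPM in FGR (202.8 to 239.1) and 124.3 CPM in Control (111.8 to 137.8), in both above its level in cells. Egr2 stood there at 48.1 CPM in FGR barcodes and 118.1 CPM in Control barcodes. The ratios in free RNA were 1.77 (1.55 to 2.03) for Nr4a1, 0.408 (0.330 to 0.501) for Egr2 and 0.840 (0.817 to 0.864) for Egr1. For Egr3 the ratio was 0.666 (0.517 to 0.855), away from the 0.973 found in cells. No cell type present was known to lack these transcripts, so single UMIs of the sparse members in a cell cannot be told apart from free RNA.

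Per cell, the genes differed in how their UMIs were spread. Before thinning, a UMI of Egr2 was found in 15.7% of FGR cells (14.9 to 16.5) and 29.4% of Control cells (28.5 to 30.2), and a UMI of Nr4a1 in 24.6% of FGR cells (23.7 to 25.5) and 17.4% of Control cells (16.7 to 18.1). To compare cells at 1 depth, each was thinned to 2000 UMIs, which left out 186 FGR cells and 152 Control cells below that depth. Egr1 then had at least 1 UMI in 79.3% of FGR cells (78.4 to 80.1) and 89.1% of Control cells (88.5 to 89.7), with medians of 4 and 6 UMIs. Egr2 had a UMI in 7.33% of FGR cells (6.78 to 7.91) and 15.5% of Control cells (14.8 to 16.2). Cells with Egr2 held 1.17 UMIs of it on average in FGR and 1.24 in Control. At means this far below 1 UMI per cell, most cells with a UMI hold 1, so a share of cells and a level cannot be told apart here.

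Nr4a1 had a UMI in 14.4% of thinned FGR cells (13.7 to 15.2) and 9.72% of thinned Control cells (9.16 to 10.3), and 1.64 and 1.41 UMIs in the cells that had it. At least 3 UMIs of Nr4a1 were found in 2.08% of FGR cells and 0.864% of Control cells. Had its UMIs fallen on cells at random at the same mean, 21.1% of FGR cells and 12.8% of Control cells would have held one. Its variance over mean was 2.24 in FGR cells and 1.72 in Control cells, where random placement gives about 1. Egr3 was spread the most unevenly of the sparse members, with a variance over mean of 2.65 in FGR cells and 2.18 in Control cells, and 1 FGR cell held 44 of its UMIs before thinning. Nab1 and Nab2 were close to random placement, with values from 1.06 to 1.10 in both libraries.

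Within a library, cells with more Egr1 also held more of Egr2 and of Nr4a1, although these moved apart between libraries. In cells with no Egr1 UMI, Egr2 had 12.9 CPM in FGR and 29.1 CPM in Control, and in cells with 6 or more Egr1 UMIs it had 71.7 and 128.0 CPM. Nr4a1 had 57.5 CPM in FGR and 18.3 CPM in Control in cells with no Egr1 UMI, and 166 and 91.1 CPM in cells with 6 or more. At each of the 4 Egr1 levels the interval of the Egr2 ratio lay below 1 (ratios 0.392 to 0.560) and that of Nr4a1 above 1 (ratios 1.82 to 3.15). The Nr4a1 ratio was 3.15 (2.25 to 4.50) in cells with no Egr1 UMI and 1.82 (1.67 to 1.99) in cells with 6 or more.

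Egr2 and Nr4a1 shared cells somewhat more often than independent placement would give. Cells with 1 to 2 Nr4a1 UMIs had Egr2 at 58.5 CPM in FGR and 130.2 CPM in Control, and cells without Nr4a1 had it at 39.3 and 91.1 CPM. Both genes had a UMI in 1.51% of FGR cells and 2.01% of Control cells, where independent placement would give 1.06% and 1.504%. Pearson's r across cells, on log(1 + UMIs) at 2000 UMIs, was 0.056 in 8432 FGR cells and 0.068 in 10535 Control cells. Over all 28 pairs of members it was at most 0.17 in FGR cells and 0.18 in Control cells, in both for Egr1 with Egr2. Cells of a library share its preparation, and coefficients this weak in sparse counts are given as description only.

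**Figure D3:**
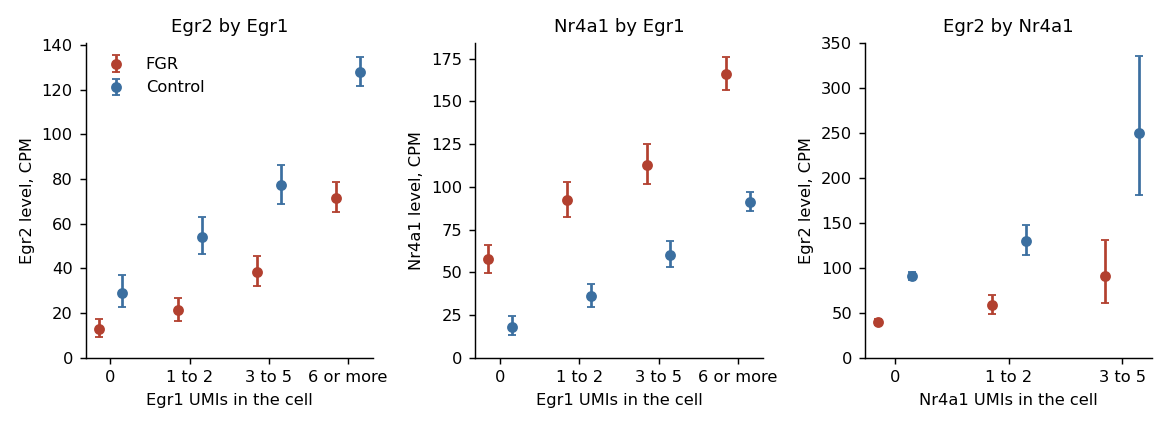
Level in CPM, at 2000 UMIs per cell, of Egr2 by Egr1 UMIs (left), of Nr4a1 by Egr1 UMIs (middle) and of Egr2 by Nr4a1 UMIs (right), in FGR cells (red) and Control cells (blue), with 95% counting intervals. Both genes are higher in cells with more Egr1 in either library, while the FGR points lie below the Control points for Egr2 and above them for Nr4a1.

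The genes whose pattern across cells was most like that of the members were mostly other early response genes. They were ranked by the lower of the r values in the 2 libraries among 3006 genes with a UMI in at least 10% of thinned cells of both libraries. For Egr1 the first 3 were Jun (r = 0.49 in FGR cells and 0.53 in Control cells), Ier2 (0.45 and 0.44) and Fos (0.497 and 0.431), followed by Btg2 and Junb. For Nr4a1 the first was Egr1 (0.13 in both), followed by Fos, Ier2, Btg2 and Zfp36. For Egr2 it was Egr1 (0.17 and 0.18), followed by Klf2, Ier2, Jun and Btg2. Egr3 had the chemokine gene Ccl2 first (0.155 and 0.113), and Nab2 had the chemokine gene Ccl3 (0.065 and 0.070), followed by Cd9, Cd63, Cd83 and Ctsb. Coefficients this weak are given only to show the order.

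Many other immediate early genes had higher levels in FGR cells. Of 47 found, 36 were measured, 19 passed the rule of size upward and 0 downward, and the median log2 ratio was 0.64, beside -0.07 over all genes measured. Over all 3512 genes measured, 2.48% passed the rule upward and 1.17% downward. The list was written with earlier results of these libraries known. Fos, the AP-1 subunit gene, stood at 4238 CPM in FGR cells and 1976 CPM in Control cells (ratio 2.15), Klf4, a zinc finger factor gene, at 557 and 259.7 CPM (2.15) and Dusp1, a phosphatase of MAP kinases, at 2711 and 579.1 CPM (4.68). Jun, the gene most like Egr1 across cells, stood at 6941 CPM in FGR cells and 6117 CPM in Control cells (ratio 1.13), and Ier2 at 803.3 and 867.3 CPM (0.926). Plk3, a stress-induced kinase, had the lowest ratio of the list, 0.655 (0.618 to 0.694), with an interval that spanned the lower limit of the rule, so it was not counted as lower.

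Genes that carry signals to these promoters had, apart from Rcan1, ratios like those of most genes, since 95.6% of all genes measured had a ratio within 1.5-fold and 3.64% passed the rule in either direction. Of 6 serum response factor and ternary complex factor genes found 2 were measured, Elk3 (ratio 0.846) and Elk4 (1.04). Of 10 ERK cascade genes 7 were measured, 0 passed the rule and the median log2 ratio was -0.09, with Rps6ka1, which encodes a kinase downstream of ERK, at a ratio of 0.809. Of 10 genes of CREB and its activators 5 were measured, 0 passed and the median was -0.16, with Creb1, Ep300 and Crebbp at 0.804, 0.884 and 0.895. Of 13 calcium, MEF2 and NFAT genes 10 were measured, with a median of -0.07. Among them Rcan1, an inhibitor of calcineurin that is itself induced by calcium signals, was higher, at 195.6 CPM in FGR cells and 55.9 CPM in Control cells (ratio 3.50, 3.36 to 3.65), and 0 were lower. Mef2d, Ppp3cb and Nfatc3 had ratios of 0.796, 0.881 and 0.908. Rxrb, which encodes a retinoid X receptor, had a ratio of 0.973. Of 11 genes of the NuRD corepressor complex, which Nab proteins recruit, 7 were measured, 0 passed and the median was -0.18, with Mta2 lowest at 0.757 and Hdac1 and Gatad2b at 0.831 and 0.878.

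The contrast was then read in cells with similar amounts of the other early transcripts. Thinned FGR cells held a median of 101 UMIs of 47 other immediate early genes and thinned Control cells 67. In cells with 40 or more such UMIs (7807 FGR and 8812 Control cells), the ratio was 0.424 for Egr2 and 1.63 for Nr4a1. Below 40 UMIs the counts were small: with 20 to 39 such UMIs (439 FGR and 1444 Control cells) Egr2 had a ratio of 0.350 (0.181 to 0.622) and Nr4a1 of 1.07 (0.666 to 1.67), and with 10 to 19 (92 and 210 cells) Egr2 had 0 UMIs in FGR cells and 10 in Control cells. Since most cells fell in the highest class, it was split further after the data were seen. The Egr2 ratio was 0.283 (0.226 to 0.352) at 40 to 79 UMIs, 0.276 (0.235 to 0.322) from 80 to below 120 and 0.340 (0.290 to 0.399) at 120 or more. The Nr4a1 ratio was 1.07 (0.919 to 1.24), 1.27 (1.13 to 1.42) and 1.13 (0.974 to 1.33) in the same classes, so the rule of size was not met in any of them. With cells weighted to the same distribution of these UMIs, the ratio was 0.283 for Egr2 and 1.08 for Nr4a1, which ends the call for Nr4a1.

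Egr1 and Egr3 were lower in FGR cells in each of these classes. The Egr1 ratio was 0.406 at 40 to 79 UMIs, 0.441 from 80 to below 120 and 0.672 at 120 or more, and that of Egr3 was 0.530, 0.636 and 0.551, with intervals that lay below 1. The list that sorts the cells holds 19 genes higher in FGR, so a class does not hold equal levels of each early gene. At 120 or more UMIs, a class of 35.9% of FGR cells but 6.07% of Control cells, Fos still had a ratio of 1.35.

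By depth of the cell, the Egr2 ratio was 0.401, 0.407, 0.483 and 0.496 in cells with at least 1500, 3000, 5000 and 8000 UMIs (each class ending where the next begins). The Nr4a1 ratio over the same classes was 1.29 (0.991 to 1.68), 1.57, 1.62 and 1.95 (1.77 to 2.16). In the deepest cells Nr4a1 reached 160.6 CPM in FGR and 82.3 CPM in Control. Egr1 had ratios of 0.526, 0.670, 0.815 and 0.819, so its distance from 1 was greatest in shallow cells.

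**Figure D4:**
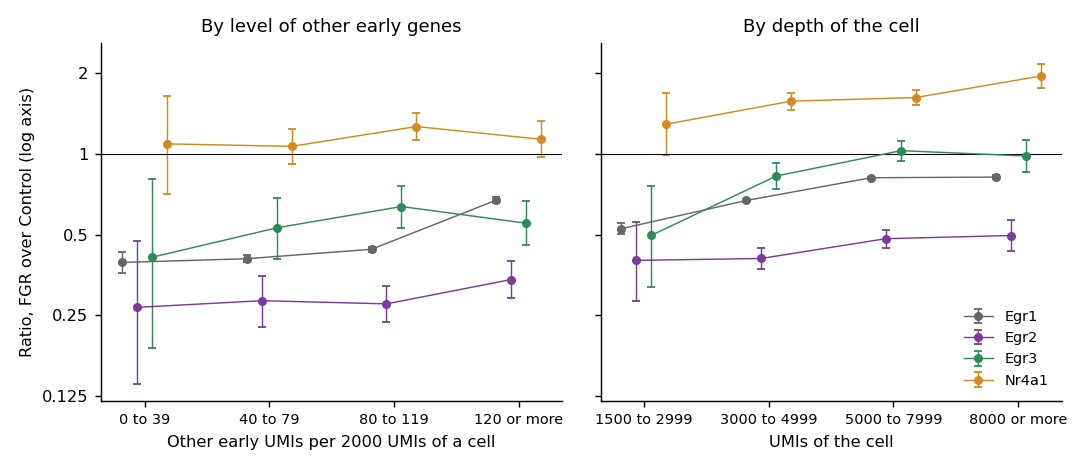
Ratio of FGR over Control (log axis) for Egr1, Egr2, Egr3 and Nr4a1 in classes of other immediate early UMIs per 2000 UMIs (left) and of total UMIs per cell (right), with 95% counting intervals. In the left panel Nr4a1 lies between 1.07 and 1.27 and Egr2 between 0.267 and 0.340, and in the right panel Nr4a1 lies between 1.29 and 1.95.

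Both libraries were clustered together, leaving the members and the other early genes out of the clustering. The clusters still separated the libraries. Cluster 0 (led by Gm22146 and Ddit4) held 7045 FGR and 56 Control cells, while clusters 1, 2 and 3 (led by Sertad1, G530011O06Rik and Slc1a2) held 4051, 3363 and 2329 Control cells and 49, 172 and 103 FGR cells. All 12 microglial markers were detected in each of these 4. To be called microglia-like, a cluster needed at least 3 microglial markers detected. No other type could have a larger share of its markers detected, or more markers among the 10 leading genes. Clusters 2 and 3 failed on the leading genes, through Mbp and Slc1a2. The class therefore held 95.1% of FGR cells and 46.2% of Control cells, mostly cluster 0 in FGR and cluster 1 in Control. Within it the Egr2 ratio was 0.329 (0.311 to 0.348) and the Nr4a1 ratio 1.21 (1.15 to 1.26), which ends the call for Nr4a1.

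Among the Control cells of the 3 clusters that held most of them, Egr1, Egr2 and Nr4a1 were highest in cluster 1. In its 4051 Control cells Egr1 stood at 5913 CPM, Egr2 at 146.8 CPM and Nr4a1 at 103.4 CPM, against 2257, 65.5 and 44.2 CPM in the Control cells of cluster 2 and 2290, 54.5 and 50.9 CPM in those of cluster 3. Nr4a1 was somewhat higher in the Control cells of cluster 4 (110.6 CPM, 98.6 to 123.6) and cluster 8 (108.0 CPM, 81.1 to 140.9), with intervals that hold the level of cluster 1. Ratios were computed for 8 clusters, those holding 50 or more cells from both libraries. The interval of the Egr1 ratio lay below 1 in 6 of them, held 1 in 1 and lay above 1 in 1. The last was cluster 0 (ratio 1.39, 1.28 to 1.52), with 56 Control cells. The interval of the Egr2 ratio lay below 1 in 5 of the 8 clusters, above 1 in 0, and held 1 in 3. The interval for Nr4a1 lay above 1 in 4, below 1 in 0, and held 1 in 4. Those that held 1 included cluster 2 (ratio 0.936, 0.617 to 1.37), cluster 3 (1.01, 0.675 to 1.45) and the cluster led by the interferon-induced gene Ifit3 (0.788, 0.495 to 1.24).

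Cluster 4, led by Lgals3, Spp1 and Csf1, held similar numbers of both libraries (575 FGR and 443 Control cells). There Egr2 stood at 44.9 CPM in FGR cells and 89.8 CPM in Control cells (ratio 0.5004, 0.411 to 0.608) and Nr4a1 at 167.5 and 110.6 CPM (1.51, 1.32 to 1.74). Egr1 was closer between the libraries, at 3070 and 3456 CPM. Nab2 was higher there than in the summed cells, at 81.3 CPM in FGR cells (72.8 to 90.5) and 112.4 CPM in Control cells (100.3 to 125.5), and 21.3% of all FGR and 14.9% of all Control Nab2 UMIs lay in this cluster of 6.67% and 4.15% of cells.

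Cluster 10 was small and stood apart in its Nr4a genes. It was led by Cldn5, Flt1 and Ly6c1, and all 5 endothelial markers were detected, so it was called endothelial-like. It held 17 FGR cells and 5 Control cells, and 9 of 12 microglial markers were also detected in it. In its FGR cells Nr4a1 stood at 1540 CPM (1338 to 1764), with 1 to 34 UMIs in each of the 17 cells, while its 5 Control cells held 0 UMIs of Nr4a1, where 3 counts would be 75.0 CPM and the exact interval reaches 92.2 CPM. Nr4a2 stood at 103.7 CPM in its FGR cells and 150.0 CPM in its Control cells, and these 22 cells held 14 of the 59 FGR and 6 of the 41 Control UMIs of Nr4a2. Egr2 had 3 UMIs in the 17 FGR cells and 0 in the 5 Control cells.

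With that cluster left out, an alternative added after the data were seen, the ratio was 1.63 (1.57 to 1.70) for Nr4a1, 0.456 for Egr2, 1.63 (1.18 to 2.26) for Nr4a3 and 1.52 (0.955 to 2.43) for Nr4a2. The interval for Nr4a2 then held 1. Nr4a1 in the remaining cells had 119.3 CPM in FGR and 73.0 CPM in Control.

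**Figure D5:**
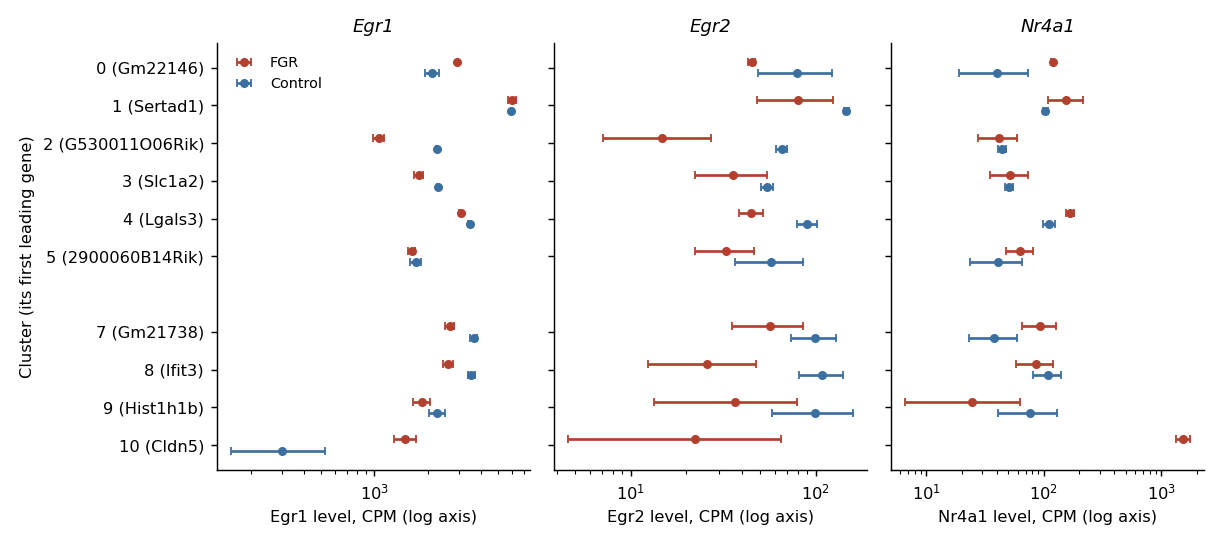
Level of Egr1, Egr2 and Nr4a1 in CPM (log axes) in each cluster, named by its first leading gene, for FGR cells (red, above) and Control cells (blue, below), with 95% counting intervals. Levels of 0 are not drawn, and clusters 6 and 11 are not shown. Nr4a1 is highest in the 17 FGR cells of cluster 10, at 1540 CPM, and Egr2 is lower in the FGR cells of most clusters.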

How the data were processed

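UMI counts per gene and barcode were deposited by the authors for 1 library of each group, unfiltered and unnormalized. Cell Ranger 4 wrote the matrices, per the file headers, while Cell Ranger 3.0, Seurat 5.0 and build mm10 are listed without a role in the submitters' processing notes. The counting settings and the annotation are not stated there. A total of 38 symbols on several gene IDs were summed, and no per-sample column was left unused (0).

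The 8 genes, the pathway lists and the marker lists were chosen with earlier results of these data known. UMIs were summed over cells per library, scaled to 1000000 UMIs of the cells (CPM) and set as ratios with exact conditional 95% intervals; levels have exact Poisson and shares exact Clopper-Pearson intervals. Such intervals cover counting error only. Counts of 0 were kept as 0. For Nr4a1 in the Control cells of cluster 10, the level that 3 counts would give is printed beside the 0. Named beside the members were the 5 genes most like each sufficiently detected member across cells, and of each pathway list the genes past the rule of size and up to 3 others with the largest log2 ratio; Jun and Ier2 are given because they lead the first of these. Some genes that this rule names are not reported here. Cells were thinned to 2000 UMIs for shares, classes and correlations. Clusters came from scanpy 1.11.5 and leidenalg 0.10.2. Doublets were not removed: the doublet caller marked 0 FGR and 1 Control cells, so it had not worked. Coordinates come from GENCODE M21 on GRCm38 and upstream sequences from RefSeq. The ratio and its rule were tested on simulated data (Python 3.11.15, scipy 1.17.1). The simulated counts had counting error only, without variation between cells or libraries, so the test does not bear on such variation. Alternatives covered the cell filters, scaling, depth, free RNA, doublet scores and the clusters used.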

Additional observations from a re-analysis of the deposited data

Results flagged for a closer look

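Nr4a1 stood at 220.4 CPM (202.8 to 239.1) in barcodes of 10 to 100 UMIs of the FGR library, against 124.3 CPM (111.8 to 137.8) in those of the Control library. These barcodes hold too few UMIs to count as cells and are outside the summed levels of cells, and the level in the FGR library lies above that in the Control library. Why the level in them is higher than in cells of the same library (124 CPM in FGR cells and 73.0 CPM in Control cells) was not tested. Egr1 (3231 CPM in FGR and 3845 CPM in Control), Egr2 and Nab2 (42.0 and 49.8 CPM) also stood higher there than in cells. So did Nr4a2, from 8 and 3 UMIs, while Egr3, Nab1 and Nr4a3 stood lower there in the FGR library.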

How the results depend on the processing

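None of the 13 alternatives turned the direction of Egr2 or Nr4a1. The Egr2 ratio ranged from 0.283 to 0.477 and left its counting interval in 3 of them: 0.329 in microglia-like clusters only, 0.283 with cells weighted to the same early UMIs and 0.424 without the 1% of cells with most UMIs of the gene. The Nr4a1 ratio ranged from 1.08 to 1.77 and left its interval in 3 alternatives. It was 1.21 in microglia-like clusters only and 1.08 with cells weighted to the same early UMIs, and both end its call. Scaled by the median of gene ratios (a shift of -0.07 in log2), it was 1.77. The microglia-like class leaves out clusters 2 and 3, although all 12 microglial markers were detected in both. Nr4a1 stood at 44.2 and 50.9 CPM in their Control cells, against 103.4 CPM in those of cluster 1. The cause of these shifts was not tested. Genes higher by the rule numbered 87, but 709 with no minimum level and 40 beyond 2-fold. Genes lower numbered 41, but 113 in microglia-like clusters only, 237 with no minimum level and 9 beyond 2-fold. Among the others, Egr1 ranged from 0.489 to 0.791, Egr3 from 0.528 to 1.02, Nab1 from 1.06 to 1.29, Nab2 from 0.679 to 0.908, Nr4a2 from 1.16 to 2.33 and Nr4a3 from 1.02 to 2.10. Egr1 left its interval in 8 of the 13 alternatives and was past the rule in microglia-like clusters only, at 0.540 (0.536 to 0.544). Egr1 stood at 2257 and 2290 CPM in the Control cells of clusters 2 and 3, outside that class. In those of cluster 1 it stood at 5913 CPM. Leaving out the 1% of cells gave no value for Nr4a2 and Nr4a3, and counts of genes were not recomputed by thinning, by weighting or without those cells. No paired analysis was possible because each group is 1 library, and for the same reason no replicate could be left out. Nr4a2, with 59 FGR and 41 Control UMIs, and Nr4a3, with 100 and 68, are limited by depth.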
